A study of Homo sapiens with 48 samples.

Results

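CSF1, CSF2, CSF3, IL7, IL15, IL32, IL24, TSLP and TNFSF13B are 9 secreted cytokine genes through which fibroblasts can signal to immune cells. They were taken by name, and each matched 1 of the 29744 genes in the deposited tables. Their RNA was followed in 48 bulk RNA-seq libraries of human fibroblasts in which GLIS3, a zinc finger transcription factor, was disrupted or activated, with 3 libraries for each of 16 conditions. All cells derived from CRL-4001, an immortalized human fibroblast line whose labels give skin as the tissue, and all carried mNeonGreen, a fluorescent reporter, knocked in at IL11. The time courses ran for 0, 6, 12 and 24 h with 10 ng/ml TGFβ and 10 ng/ml IL-1β, and the 0 h cells received neither cytokine.

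The colony-stimulating factors direct the growth and survival of myeloid cells. CSF1 acts on the macrophage lineage, CSF2 (GM-CSF) on granulocytes, macrophages and dendritic cells, and CSF3 (G-CSF) on neutrophils. IL7 and TSLP act on lymphoid and dendritic cells through receptors that share a chain, IL15 sustains NK and memory T cells, TNFSF13B (BAFF) sustains B cells, IL24 belongs to the IL-10 family, and IL32 is an intracellular and secreted inflammatory protein. In fibroblasts IL-1β activates NF-κB and AP-1 and is a well-known inducer of the CSF genes, whereas TGFβ acts through SMAD proteins.

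H47_Ctrl and H47_KO cells expressed Cas9 and carried a non-targeting or a GLIS3 guide, respectively. VP64_Ctrl and VP64_A cells expressed dCas9-VP64, a nuclease-dead Cas9 fused to a transcriptional activator, again with a non-targeting or a GLIS3 guide. The reporter cells came from single-cell clones, guides were delivered by lentivirus, and each perturbed population was selected in bulk with puromycin and blasticidin rather than picked as a clone. The cell-line label reads as a GLIS3 knockout for all samples, controls and dCas9-VP64 cells included. For the dCas9-VP64 libraries the sample titles and the descriptions name opposite groups, and the names used here are those of the descriptions. GLIS3 ranged from 16.6 to 36.7 CPM, that is counts scaled to library size, in the 12 VP64_A libraries and from 1.91 to 6.31 CPM in the 12 VP64_Ctrl libraries. It ranged from 0.144 to 1.64 CPM in H47_KO and from 1.45 to 6.47 CPM in H47_Ctrl. Read by the titles, every VP64_A to VP64_Ctrl direction below would turn.

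The libraries held 2321990 to 10661004 estimated counts (median 5139646). The fibroblast markers COL1A1, COL1A2, COL3A1, DCN, LUM, PDGFRB, THY1 and VIM summed to 10120 to 61870 CPM over the groups, and none of the 8 was at 0 throughout a group. Some of them moved between the groups compared: DCN was called lower in H47_KO at 0 and 6 h, COL1A1, COL1A2 and COL3A1 were called higher in VP64_A at 0 h, LUM was lower in VP64_A at 6 and 12 h, THY1 at 6 h and DCN at 24 h. Their part in the differences below was not tested. In VP64_Ctrl 0 h replicate 3 the 50 most abundant genes took 23.1% of the counts, against 30.7% to 46.4% in the other libraries. Without it 11 differences and 2 response differences were called between VP64_A and VP64_Ctrl, as many as with it, with CSF1 at 0 h at 0.97 and IL32 at 0 h at -1.15 on the log2 scale. The 5 myeloid markers, CSF1R among them, summed to at most 6.29 CPM, with LYZ and TYROBP at 0. EPCAM was at 0 in every library, the 4 epithelial markers summed to at most 0.467 CPM, and the 3 endothelial markers to at most 1.5 CPM. The study describes its cell culture replicates in general as independent. The labels do not say how these 3 libraries of a condition were obtained, and p-values measure the spread between them.

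CSF2 and IL32 are shown by their promoters, because these 2 genes moved in opposite directions between VP64_A and VP64_Ctrl late in stimulation. The RefSeq table (GRCh38.p14) holds promoters for 5 of the 9 members, CSF2, IL32, IL24, TSLP and TNFSF13B, 9 sequences in all, each of 300 bases from 250 before to 50 after an annotated start. CSF1 and CSF3 also moved opposite to CSF2 at 24 h, and are not among these 5. The motifs searched on both strands were the AP-1 motif TGANTCA, the kappaB motif that NF-κB proteins bind, and the GLIS core TGGGGGGT. Capitals mark matches. The CSF2 promoter (chr5:132073539-132073838, plus strand) held none of these letters:
CSF2: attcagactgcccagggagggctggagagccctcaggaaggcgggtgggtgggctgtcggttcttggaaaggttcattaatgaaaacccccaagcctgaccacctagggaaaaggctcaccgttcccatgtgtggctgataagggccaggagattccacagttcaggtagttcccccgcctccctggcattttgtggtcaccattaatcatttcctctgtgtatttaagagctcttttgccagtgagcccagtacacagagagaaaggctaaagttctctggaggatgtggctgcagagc
For IL32 the table holds 2 starts. The window at the upstream one (chr16:3065153-3065452, plus strand) held 2 overlapping kappaB matches at -99 to -89 from the start, and that at the downstream one (chr16:3065534-3065833, plus strand) held 1 GLIS core match on the minus strand at -189 to -182 from the start:
IL32 upstream start: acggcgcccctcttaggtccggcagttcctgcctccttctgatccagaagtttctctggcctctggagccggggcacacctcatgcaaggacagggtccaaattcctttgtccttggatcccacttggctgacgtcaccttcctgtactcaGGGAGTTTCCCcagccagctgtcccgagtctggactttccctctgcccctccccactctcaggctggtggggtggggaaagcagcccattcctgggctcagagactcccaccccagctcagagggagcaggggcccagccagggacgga
IL32 downstream start: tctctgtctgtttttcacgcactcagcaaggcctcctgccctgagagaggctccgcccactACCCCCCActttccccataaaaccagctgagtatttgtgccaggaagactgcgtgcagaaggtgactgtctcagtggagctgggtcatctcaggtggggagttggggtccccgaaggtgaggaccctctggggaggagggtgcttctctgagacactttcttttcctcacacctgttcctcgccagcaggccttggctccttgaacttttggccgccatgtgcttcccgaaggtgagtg
Among all 35116 promoters of the table, 7.71% held the AP-1 motif, 5.91% the kappaB motif and 1.47% the GLIS core. Of the remaining 6 member promoters, 1 of the 3 TSLP windows held 2 kappaB matches and the others held no match. These are matches of letters and were not tested for binding. Sites that depart from these letters were not searched, in the CSF2 window or in the others.

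CSF1, CSF2, CSF3, IL7, IL15 and IL32, 6 of the 9 members, passed the filter on low counts in both arms and were tested. IL24, TSLP and TNFSF13B did not pass in either arm. Per length, CSF2 was the most abundant member in 11 of the 12 stimulated conditions. In VP64_A at 24 h IL32 stood at 111 ± 9.28 TPM and CSF2 at 96.3 ± 23.3 TPM. At 12 h in H47_Ctrl CSF2 reached 2609 ± 283 TPM (counts scaled by transcript length and library size; SD, n = 3), against 145 ± 60.2 TPM for CSF3, 31.2 ± 3.23 TPM for IL32, 26.3 ± 5.03 TPM for CSF1, 3.62 ± 0.316 TPM for IL15 and 0.878 ± 0.242 TPM for IL7. Without cytokines the order was different, and in H47_Ctrl at 0 h IL32 stood at 4.41 ± 1.92 TPM, IL15 at 2.62 ± 0.396, CSF1 at 1.94 ± 0.296, IL7 at 1.51 ± 0.878, CSF2 at 0.655 ± 0.595 and CSF3 at 0.104 ± 0.18 TPM. Levels of 1 gene are given below as CPM scaled by TMM within each arm.

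Under TGFβ and IL-1β, CSF1, CSF2, CSF3 and IL32 rose in all 4 groups of cells and at all 3 times, IL15 rose at 6 h in all 4 groups, and IL7 rose at 6 h in VP64_A. Of 18 pairs of a tested member and a time, 13 were called higher than 0 h in H47_Ctrl, 13 in H47_KO, 13 in VP64_Ctrl and 14 in VP64_A (edgeR quasi-likelihood test, adjusted p under 0.05), and none was called lower. The 3 times of a group share its 0 h libraries. At 0 h CSF2 and CSF3 held at most 10 counts over the 3 libraries of a group, so they passed the filter through stimulated libraries. Their direction against 0 h was thereby set, and the counts of calls and the medians given here include them. The share of all genes called higher at 6, 12 and 24 h was 10.3%, 11.3% and 6.53% in H47_Ctrl and 13.2%, 14.4% and 9.07% in H47_KO. It was 16.2%, 15.3% and 10.4% in VP64_Ctrl and 11.4%, 12.6% and 9% in VP64_A. The median log2 fold change of the 6 members at 6 h was 3.61 in H47_Ctrl, 3.81 in H47_KO, 2.91 in VP64_Ctrl and 3.52 in VP64_A, where the median of all genes lay between -0.10 and -0.01. In bulk RNA, fewer cells that express a gene and less RNA of it per cell cannot be told apart.

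**Figure D1:**
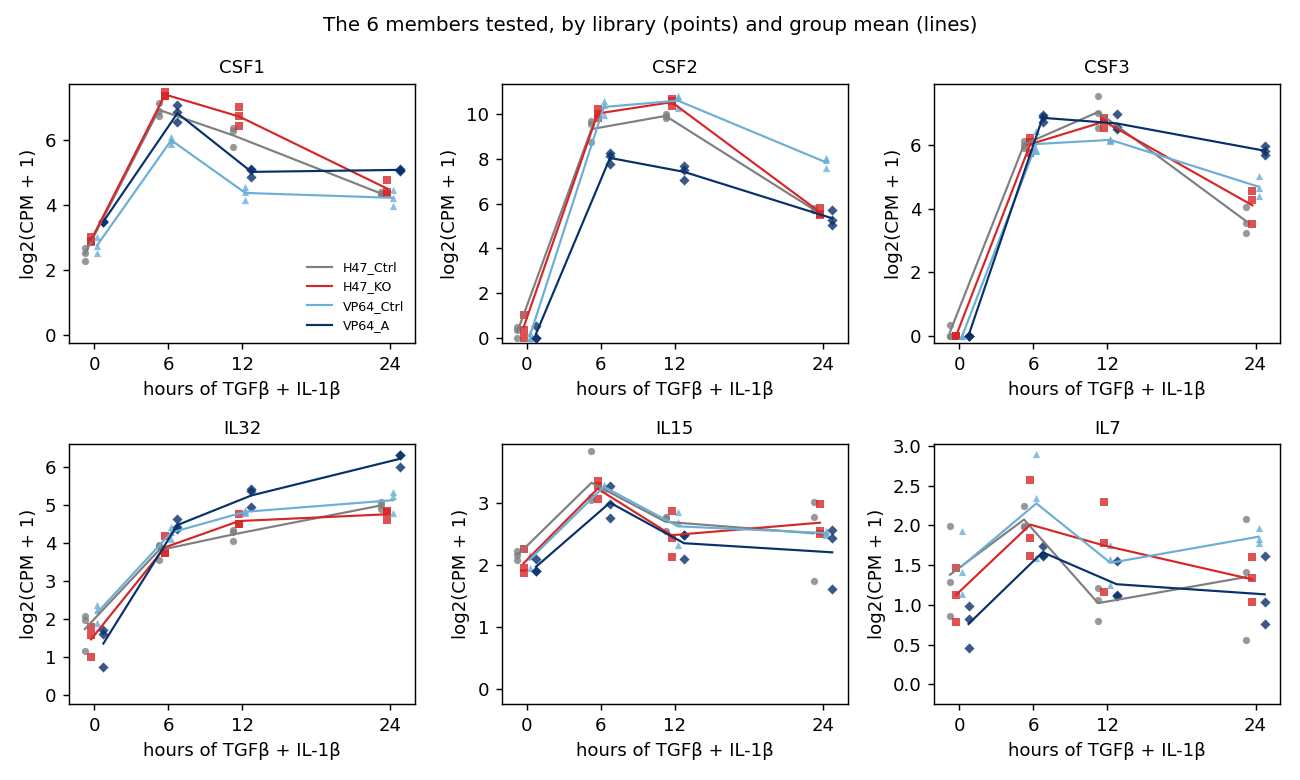
Level of the 6 tested members against hours of TGFβ and IL-1β, on the scale log2(CPM + 1), for H47_Ctrl, H47_KO, VP64_Ctrl and VP64_A. Points are the 3 libraries of a condition, shifted slightly along the time axis so that groups do not hide each other, and lines join the means. CSF1, CSF2 and CSF3 peaked at 6 or 12 h, IL32 was highest at 24 h, and CSF2 in VP64_A ran below the other groups at 6 and 12 h.

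CSF2 (chr5:132073789-132076170, plus strand), the gene of GM-CSF, went from almost no reads at 0 h to at least 133 CPM in each library at 6 and 12 h. At 0 h the 3 libraries held 3, 0 and 1 counts in H47_Ctrl, 0, 2 and 8 in H47_KO, 0, 2 and 0 in VP64_Ctrl, and 5, 0 and 0 in VP64_A. At 6 h the libraries stood at 436, 749 and 825 CPM in H47_Ctrl, 905, 1216 and 1041 in H47_KO, 1002, 1383 and 1520 in VP64_Ctrl and 217, 277 and 305 in VP64_A. Every stimulated library was far above every unstimulated one. At 12 h they stood at 1036, 913 and 971 CPM in H47_Ctrl, 1624, 1340 and 1521 in H47_KO, 1711, 1224 and 1817 in VP64_Ctrl and 205, 133 and 183 in VP64_A. By 24 h they had come down to 52.0, 50.9 and 54.9 CPM in H47_Ctrl, 44.5, 55.8 and 45.5 in H47_KO, 261, 244 and 190 in VP64_Ctrl and 52.5, 31.9 and 37.4 in VP64_A. The 24 h ranges of H47_Ctrl and H47_KO overlapped, and the VP64_Ctrl libraries lay above those of VP64_A. CPM is scaled within an arm, and levels were not tested between the arms. Summed over the 3 libraries, the ratio of 6 h to 0 h was 2739 in H47_Ctrl (95% counting interval 1069 to 10050), 2090 in H47_KO (1136 to 4361), 18370 in VP64_Ctrl (5085 to 151700) and 1353 in VP64_A (579 to 4168). These intervals cover counting error only, and the width comes from the few reads at 0 h. From 6 to 24 h CSF2 fell by 3.67 ± 0.27 on the log2 scale in H47_Ctrl, by 4.45 ± 0.27 in H47_KO, by 2.49 ± 0.25 in VP64_Ctrl and by 2.71 ± 0.26 in VP64_A (± SE; adjusted p at most 4.72e-09).

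CSF3 (chr17:40015361-40017813, plus strand), the gene of G-CSF, was as quiet at 0 h. A single count in 1 H47_Ctrl library was the only one among the 12 unstimulated libraries. At 6 h the libraries stood at 59.5, 63.5 and 70.2 CPM in H47_Ctrl, 67.9, 53.5 and 74.6 in H47_KO, 55.7, 86.5 and 56.8 in VP64_Ctrl, and 124, 106 and 119 in VP64_A, so that the VP64_A libraries stood above those of VP64_Ctrl. At 12 h they stood at 189, 130 and 93.2 CPM in H47_Ctrl, 93.4, 117 and 112 in H47_KO, 70.5, 69.9 and 73.3 in VP64_Ctrl, and 126, 94.5 and 90.5 in VP64_A. At 24 h they stood at 10.66, 8.41 and 15.5 CPM in H47_Ctrl, 18.2, 22.5 and 10.4 in H47_KO, 24.2, 31.4 and 20.3 in VP64_Ctrl, and 62.2, 55.3 and 50.9 in VP64_A. The ranges of H47_Ctrl and H47_KO overlapped at each stimulated time. Against a floor of 3 counts over the 3 unstimulated libraries, CSF3 at 6 h was at least 449.8-fold higher in H47_KO, at least 673-fold in VP64_Ctrl and at least 993.5-fold in VP64_A, and in H47_Ctrl the ratio to its 1 count was 1099 (95% counting interval 197 to 43460). From 6 to 24 h it fell by 2.44 ± 0.26 on the log2 scale in H47_Ctrl, by 2.02 ± 0.25 in H47_KO, by 1.42 ± 0.19 in VP64_Ctrl and by 1.05 ± 0.18 in VP64_A (adjusted p at most 9.55e-05).

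CSF1 (chr1:109910242-109930992, plus strand), the gene of M-CSF, had a measurable level without cytokines and an early peak. At 0 h its libraries stood at 3.92, 4.83 and 5.40 CPM in H47_Ctrl, 7.07, 6.35 and 6.45 in H47_KO, 4.80, 5.72 and 7.19 in VP64_Ctrl, and 10.2, 10.6 and 10.2 in VP64_A. At 6 h they stood at 142, 106 and 120.0 CPM in H47_Ctrl, 165, 178 and 164 in H47_KO, 67.5, 58.8 and 63.8 in VP64_Ctrl, and 92.7, 116 and 135 in VP64_A. The highest value of each group fell at 6 h, and no 6 h library overlapped the 0 h libraries of its group. The log2 fold change from 0 to 6 h was 4.73 ± 0.21 in H47_Ctrl, 4.67 ± 0.20 in H47_KO, 3.45 ± 0.18 in VP64_Ctrl and 3.47 ± 0.17 in VP64_A. At 12 h CSF1 averaged 71.5 ± 14.8 CPM in H47_Ctrl and 107 ± 21.2 in H47_KO but 20 ± 2.83 in VP64_Ctrl and 31.8 ± 2.96 in VP64_A (SD, n = 3), and by 24 h the 4 means lay between 17.97 and 33.1 CPM. From 6 to 24 h it fell by 2.65 ± 0.18 on the log2 scale in H47_Ctrl, by 2.97 ± 0.17 in H47_KO, by 1.80 ± 0.17 in VP64_Ctrl and by 1.79 ± 0.16 in VP64_A (adjusted p at most 1.06e-09). The 24 h level was still above that at 0 h, with log2 fold changes of 2.08 ± 0.22, 1.71 ± 0.20, 1.65 ± 0.18 and 1.68 ± 0.17 in the same order. The Cas9 and dCas9-VP64 cells are different lines, and the difference between the arms in the pace of this decline was not tested.

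IL32 (chr16:3065297-3082192, plus strand) followed another course, and was higher at 24 h than at 6 h in each group. At 0 h its libraries stood at 1.22, 2.90 and 3.24 CPM in H47_Ctrl, 2.48, 1.01 and 1.98 in H47_KO, 4.14, 3.73 and 2.70 in VP64_Ctrl, and 2.06, 2.26 and 0.659 in VP64_A. The values rest on 4 to 50 counts each. At 6 h they had reached 14.4, 10.8 and 14.2 CPM in H47_Ctrl, 12.4, 12.4 and 17.1 in H47_KO, 20.5, 18.7 and 16.2 in VP64_Ctrl, and 23.8, 19.6 and 20.4 in VP64_A. At 12 h they stood at 19.1, 15.7 and 18.5 CPM in H47_Ctrl, 21.5, 21.5 and 26.1 in H47_KO, 28.02, 26.6 and 27.3 in VP64_Ctrl, and 29.9, 40.7 and 42.2 in VP64_A. At 24 h they stood at 32.7, 31.3 and 28.5 CPM in H47_Ctrl, 27.9, 23.4 and 27.2 in H47_KO, 39.6, 26.9 and 36.9 in VP64_Ctrl, and 78.9, 78.9 and 63.7 in VP64_A. The VP64_A libraries at 24 h were the highest of the 48. The log2 fold change from 0 to 24 h was 3.73 ± 0.27 in H47_Ctrl, 3.86 ± 0.27 in H47_KO, 3.27 ± 0.22 in VP64_Ctrl and 5.37 ± 0.25 in VP64_A (adjusted p at most 2.13e-12). From 6 to 24 h IL32 rose by 1.23 ± 0.22, 0.90 ± 0.23, 0.89 ± 0.20 and 1.79 ± 0.19 on the log2 scale in the same order (adjusted p at most 0.00411). On log2(TPM + 0.1) the H47_Ctrl rise from 6 to 24 h was not called (adjusted p = 0.0605).

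**Figure D2:**
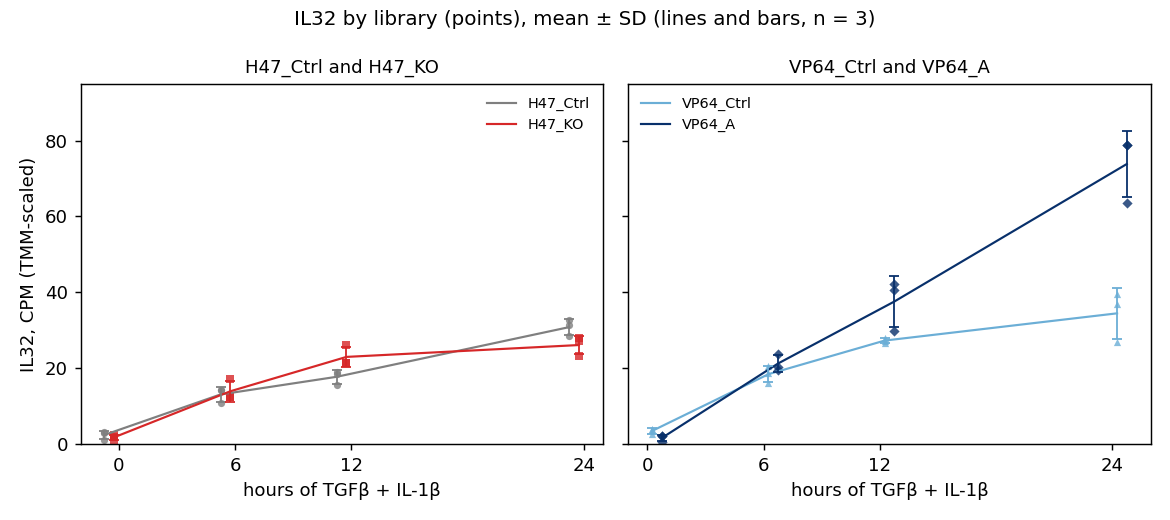
IL32 in CPM on a linear axis against hours of TGFβ and IL-1β, with H47_Ctrl and H47_KO on the left and VP64_Ctrl and VP64_A on the right. Points are libraries, lines join the means and bars are the SD (n = 3). The VP64_A mean starts below that of VP64_Ctrl at 0 h (1.66 against 3.52 CPM) and ends above it at 24 h (73.8 against 34.5 CPM), while the H47 groups stay close together.

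IL15 (chr4:141636583-141733987, plus strand) showed a small early rise. Its mean at 0 h was 3.49 ± 0.232 CPM in H47_Ctrl, 3.12 ± 0.617 in H47_KO, 3.27 ± 0.323 in VP64_Ctrl and 2.94 ± 0.311 in VP64_A (SD, n = 3). At 6 h its libraries stood at 13.4, 7.56 and 7.36 CPM in H47_Ctrl, 9.26, 7.43 and 8.72 in H47_KO, 8.45, 8.83 and 8.69 in VP64_Ctrl, and 8.75, 5.76 and 6.99 in VP64_A, all above the 0 h libraries of their group. The log2 fold change at 6 h was 1.44 ± 0.34, 1.43 ± 0.35, 1.40 ± 0.29 and 1.29 ± 0.30 in that order (adjusted p 0.00211, 0.00295, 5.06e-04 and 0.00206). On log2(TPM + 0.1), with 0.1 TPM added, none of the 4 passed in limma (adjusted p 0.0525 to 0.114). No later time passed the test against 0 h. From 6 to 24 h the decline passed in VP64_Ctrl, where IL15 fell by 0.87 ± 0.30 on the log2 scale (adjusted p = 0.0394), and this call was lost on leaving out any of the 6 libraries compared (adjusted p 0.061 to 0.1003). The values in the other groups were -0.82 ± 0.33 in H47_Ctrl, -0.66 ± 0.34 in H47_KO and -0.86 ± 0.31 in VP64_A (adjusted p 0.101, 0.156 and 0.0654).

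IL7, on chromosome 8, was near the lower end of what could be tested, with 1 to 45 counts per library. Its libraries at 6 h stood at 3.74, 2.99 and 2.95 CPM in H47_Ctrl, 2.06, 4.96 and 2.58 in H47_KO, 6.45, 2.02 and 4.06 in VP64_Ctrl, and 2.08, 2.35 and 2.07 in VP64_A. At 0 h the means were 1.74 ± 1.11, 1.23 ± 0.525, 1.89 ± 0.832 and 0.713 ± 0.31 CPM in the same order. The 0 h and 6 h ranges overlapped in H47_Ctrl and VP64_Ctrl and not in H47_KO or VP64_A. The log2 fold change at 6 h was 1.60 ± 0.54 in VP64_A (adjusted p = 0.0378), against 0.99 ± 0.56 in H47_Ctrl, 1.34 ± 0.60 in H47_KO and 1.15 ± 0.45 in VP64_Ctrl (adjusted p 0.266, 0.106 and 0.0553). The VP64_A call was lost without any one of VP64_A 0 h replicates 1 and 2 and VP64_A 6 h replicates 1, 2 and 3 (adjusted p 0.0713 to 0.147). It was also lost with no filter (adjusted p = 0.0643) and in limma on log2 TPM (adjusted p 0.0817 and 0.133). In VP64_Ctrl the rise passed without VP64_Ctrl 0 h replicate 1 (adjusted p = 0.0281) or VP64_Ctrl 6 h replicate 2 (adjusted p = 0.0221).

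Between 6 and 24 h, 4 of the 6 tested members were called in H47_Ctrl, H47_KO and VP64_A and 5 in VP64_Ctrl: CSF1, CSF2 and CSF3 fell and IL32 rose in each, and IL15 fell in VP64_Ctrl. Of all genes, 14.6%, 24.2%, 12.5% and 18.4% were called in either direction in H47_Ctrl, H47_KO, VP64_A and VP64_Ctrl, respectively.

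The first genetic comparison asks whether loss of GLIS3 alters these cytokines. Between H47_KO and H47_Ctrl, no member was called at 0, 6, 12 or 24 h, that is 0 of 24 pairs of member and time in edgeR. The background was small as well, with 0.301%, 0.319%, 0.0821% and 0.21% of all genes called in either direction at 0, 6, 12 and 24 h. The 24 pairs include CSF2 and CSF3 at 0 h, where a group held at most 10 counts of either gene. At an unadjusted p under 0.05 there were 5 pairs, CSF1 at 0, 6 and 12 h and CSF2 at 6 and 12 h, all higher in H47_KO and with library ranges that did not overlap. Of the 10962 genes tested, 1253, 1228, 842 and 1096 had such a p at 0, 6, 12 and 24 h. Ranges without overlap were not counted over all genes. DESeq2 called 1 of the 24, CSF2 at 6 h (log2 fold change 0.68, adjusted p = 0.0177), and limma on log2 TPM called none, with 1 pair (CSF3 at 24 h) at an unadjusted p under 0.05 on log2(TPM + 1) and 0 on log2(TPM + 0.1). In edgeR, CSF2 differed by 0.65 ± 0.24 at 6 h and 0.62 ± 0.24 at 12 h (adjusted p 0.25 and 0.454) on the log2 scale. CSF1 differed at 0, 6 and 12 h by 0.52 ± 0.24, 0.46 ± 0.16 and 0.57 ± 0.16 (adjusted p 0.394, 0.216 and 0.204). At 24 h the values were 0.14 ± 0.19 for CSF1, -0.12 ± 0.25 for CSF2, 0.45 ± 0.28 for CSF3 and -0.23 ± 0.21 for IL32. At 6 h CSF3 differed by 0.03 ± 0.23 and IL32 by 0.10 ± 0.24, and at 12 h by -0.36 ± 0.22 and 0.37 ± 0.22. The IL32 ranges did not overlap at 12 or 24 h, with H47_KO higher at 12 h and lower at 24 h.

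Activation of GLIS3 went with differences in 4 members. Between VP64_A and VP64_Ctrl, CSF2 was lower at 6, 12 and 24 h, CSF1 was higher at all 4 times, CSF3 was higher at 6 and 24 h, and IL32 was lower at 0 h and higher at 24 h, which made 11 of 24 pairs, 7 higher and 4 lower. On log2 TPM, which lacks the TMM scaling, limma called 1 higher and 5 lower with 0.1 TPM added, and 2 higher and 5 lower with 1 TPM added. Of the 6 members, 1, 2, 1 and 3 were called higher at 0, 6, 12 and 24 h, where 4.29%, 1.86%, 2.37% and 1.99% of all genes were. At each time 1 member was called lower, where 5.12%, 1.90%, 1.94% and 2.13% of all genes were. The median log2 fold change of the 6 members was -0.08, -0.05, 0.08 and 0.30 at the 4 times, against -0.02, 0.01, 0.00 and -0.02 for all genes, and the members went in both directions. The 0 h median and the 24 pairs include CSF3 at 0 h, with 0 counts in both groups, and CSF2 at 0 h, with 5 counts in VP64_A and 2 in VP64_Ctrl. No difference could be detected in these pairs.

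**Figure D3:**
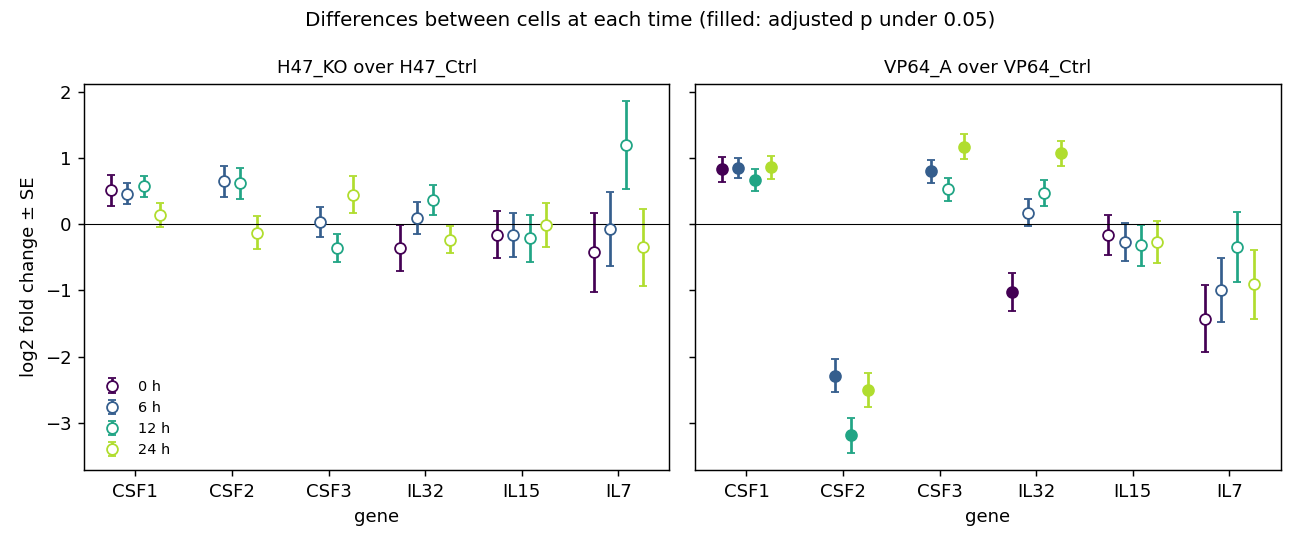
Log2 fold change of each tested member at 0, 6, 12 and 24 h, with H47_KO over H47_Ctrl on the left and VP64_A over VP64_Ctrl on the right. Bars are the SE from the edgeR fit, filled points passed an adjusted p under 0.05, and CSF2 and CSF3 at 0 h are left out because they had almost no counts. No point is filled on the left. On the right CSF2 lies between -2.29 and -3.19, CSF1 between 0.67 and 0.86, and IL32 passes from -1.03 at 0 h to 1.08 at 24 h.

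CSF2 carried the largest of these differences. Its mean was 266 ± 45.1 CPM in VP64_A against 1302 ± 269 in VP64_Ctrl at 6 h, 174 ± 37.2 against 1584 ± 316 at 12 h and 40.6 ± 10.65 against 232 ± 37 at 24 h (SD, n = 3). The 3 libraries of VP64_A lay below the 3 of VP64_Ctrl at each of these times. In the order of the times, the log2 fold changes were -2.29 ± 0.25, -3.19 ± 0.26 and -2.51 ± 0.26 (adjusted p 1.10e-07, 2.35e-10 and 3.65e-08), that is 4.89-, 9.16- and 5.69-fold lower. All 3 calls held under each of the 8 other settings and on leaving out each library. At 0 h, with 5 counts in VP64_A and 2 in VP64_Ctrl over the 3 libraries, no difference was detectable.

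CSF1 and CSF3 went the other way, and by less. CSF1 averaged 10.3 ± 0.201 against 5.90 ± 1.21 CPM at 0 h, 115 ± 20.96 against 63.3 ± 4.35 at 6 h, 31.8 ± 2.96 against 20 ± 2.83 at 12 h and 33.1 ± 0.935 against 17.97 ± 3.17 at 24 h, VP64_A first. The library ranges did not overlap at any time, and the log2 fold change was 0.83 ± 0.19, 0.85 ± 0.16, 0.67 ± 0.17 and 0.86 ± 0.17 (adjusted p 0.00342, 4.82e-04, 0.0163 and 0.00126). On either log2 TPM scale limma called none of the 4 (adjusted p 0.112 to 0.451). On that scale the median difference of all genes between VP64_A and VP64_Ctrl lay -0.38, 0.12, -0.07 and -0.29 from that of the edgeR fit at 0, 6, 12 and 24 h, and the CSF1 differences were 0.34 to 0.45, 0.86 to 0.89, 0.61 to 0.69 and 0.54 to 0.60. The part of this shift in the lost calls was not tested. The 12 h call was also lost without VP64_A 12 h replicate 2 or 3 or VP64_Ctrl 12 h replicate 2 or 3 (adjusted p 0.0582 to 0.112). When only the libraries compared were fitted, the calls at 0 and 12 h were lost (adjusted p 0.0549 and 0.0646). CSF1 was not called in the test of the response below.

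CSF3 averaged 116 ± 9.59 CPM in VP64_A against 66.4 ± 17.5 in VP64_Ctrl at 6 h, 104 ± 19.4 against 71.2 ± 1.86 at 12 h and 56.1 ± 5.68 against 25.3 ± 5.64 at 24 h. The ranges did not overlap at any of the 3 times. The corresponding log2 fold changes were 0.80 ± 0.18, 0.53 ± 0.17 and 1.17 ± 0.19 (adjusted p 0.00527, 0.0886 and 1.21e-04), so the 12 h difference did not pass. Without VP64_Ctrl 6 h replicate 1 the 6 h value was 0.66 (adjusted p = 0.0723), and on log2(TPM + 0.1) the 24 h value was 0.85 (adjusted p = 0.0617). At 0 h all 6 libraries were at 0. The 2 factors for granulocytes, CSF2 and CSF3, moved in opposite directions in the same libraries at 6 and 24 h.

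IL32 changed direction over time. At 0 h it was lower in VP64_A (1.66 ± 0.874 against 3.52 ± 0.743 CPM, log2 fold change -1.03 ± 0.28, adjusted p = 0.018). This call was lost without VP64_A 0 h replicate 3 (-0.75, adjusted p = 0.109), the library with 4 counts, and without VP64_Ctrl 0 h replicate 1 (-0.90, adjusted p = 0.08). It was also lost when only the libraries compared were fitted (-1.04, adjusted p = 0.178). At 6 and 12 h it differed by 0.18 ± 0.21 and 0.48 ± 0.19 (adjusted p 0.809 and 0.198). At 24 h it was higher in VP64_A (73.8 ± 8.79 against 34.5 ± 6.72 CPM, log2 fold change 1.08 ± 0.19, adjusted p = 2.08e-04), though not on log2 TPM, where the value was 0.80 to 0.81 (adjusted p 0.116 and 0.203). IL15 and IL7 were not called at any time by edgeR. The nearest was IL7 at 0 h, with 0.713 ± 0.31 CPM in VP64_A against 1.89 ± 0.832 in VP64_Ctrl and a log2 fold change of -1.43 ± 0.51 (adjusted p = 0.069), which passed in limma on log2 TPM (adjusted p 0.0387 and 0.0467).

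A separate test asked whether the response from 0 h to a later time differed between cells. Of the 6 tested members edgeR called IL32, with a larger response in VP64_A by 1.5 ± 0.34 on the log2 scale at 12 h (adjusted p = 0.0462) and by 2.10 ± 0.34 at 24 h (adjusted p = 0.00168). At 6 h the difference was 1.2 ± 0.35 (adjusted p = 0.275). The 24 h call held under each of the 8 other settings and on leaving out each library. The 12 h call was lost on leaving out 17 of the 24 libraries in turn, VP64_A 12 h replicate 3 (1.42, adjusted p = 0.131) and VP64_A 0 h replicate 3 (1.22, adjusted p = 0.158) among them. Of all genes, 0.0911%, 0.264% and 0.209% were called at 6, 12 and 24 h in either direction. Between H47_KO and H47_Ctrl edgeR called 0 of the 18 pairs, with 0 at an unadjusted p under 0.05. DESeq2 called 0 as well, and limma on either log2 TPM scale called 0 with 1 pair, CSF3 at 24 h, at an unadjusted p under 0.05. Of all genes 0.00912%, 0% and 0% were called there at 6, 12 and 24 h, and 869, 709 and 616 of the 10962 tested had an unadjusted p under 0.05 in edgeR. CSF2 was not called by edgeR (adjusted p 0.351, 0.182 and 0.435 at 6, 12 and 24 h). Its response was lower in VP64_A under each of the 8 other settings, and was called at 12 h by DESeq2 (adjusted p = 0.0206) and with no filter (adjusted p = 0.0231), and at all 3 times by limma on log2(TPM + 1). For CSF2 and CSF3 this test has little to rest on, since their 0 h counts were at or near 0.

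Ordered by mean CPM within an arm, CSF2 ran from VP64_Ctrl at 12 h over VP64_Ctrl at 6 h, VP64_A at 6 h, VP64_Ctrl at 24 h and VP64_A at 12 h to VP64_A at 24 h and the 2 unstimulated groups. Library ranges overlapped for 4 of these 7 neighbouring pairs, and VP64_Ctrl at 24 h overlapped both of its neighbours. In the H47 cells the order was H47_KO at 12 h, H47_KO at 6 h, H47_Ctrl at 12 h, H47_Ctrl at 6 h, both 24 h groups and both 0 h groups, with 3 of 7 neighbours overlapping. IL32 ran from VP64_A at 24 h down to VP64_A at 0 h with 3 of 7 neighbours overlapping, and 4 of 7 overlapped in the H47 cells. For CSF3 4 of 7 neighbours overlapped in each arm, and for CSF1 2 of 7. For IL15 6 of 7 overlapped in each arm, and for IL7 7 of 7 in the H47 cells and 6 of 7 in the VP64 cells, so the order of their conditions was mostly within the spread.

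The 3 members below the filter are given by their counts. IL24 (chr1:206897443-206904139, plus strand), an IL-10 family cytokine, was above 0 in 20 of 48 libraries with 62 counts in all. Of these, 15 came from 1 H47_KO library at 24 h, whose 2 companions held 0. Over the 3 VP64_A libraries at 12 h it had 3, 11 and 1 counts against 2, 6 and 0 in VP64_Ctrl, and at 24 h 0, 0 and 0 against 1, 4 and 0. One count in an H47_KO library was all that the 12 unstimulated libraries held, so IL24 reads came almost wholly from stimulated cells. TNFSF13B (chr13:108251240-108308484, plus strand), the B cell survival factor BAFF, was above 0 in 29 libraries with 83 counts in all and at most 7 in 1 library. Its VP64_Ctrl libraries at 12 h held 7, 7 and 3 counts against 1, 0 and 0 at 0 h, a ratio of 37.3 (95% counting interval 5.84 to 1557), and the VP64_A libraries 0, 5 and 5 against 0, 0 and 0. The H47_Ctrl libraries held 4, 2 and 1 counts at 0 h and 1, 0 and 2 at 12 h. TSLP (chr5:111070062-111078026, plus strand), an epithelial and stromal alarmin, had 11 counts in 6 libraries, 6 of them in H47_Ctrl at 6 h (2, 4 and 0). Its 12 VP64_A libraries held 0, where 3 counts over the group would be 0.0446 CPM. None of these counts was tested.

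**Figure D4:**
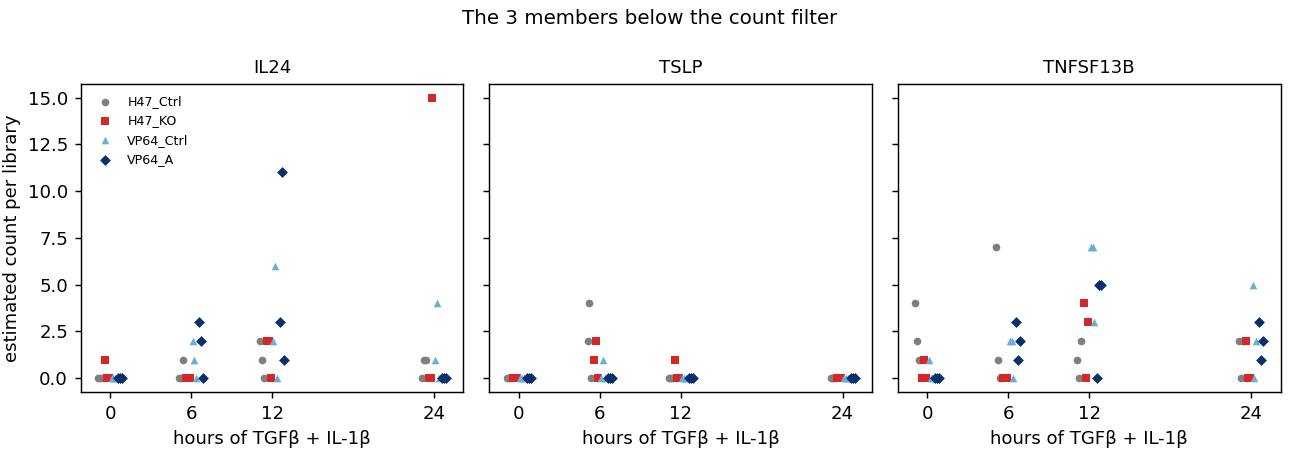
Estimated counts of IL24, TSLP and TNFSF13B in each of the 48 libraries against hours of TGFβ and IL-1β. Each point is 1 library, shifted slightly along the time axis. The highest points are IL24 at 15 counts in 1 H47_KO library at 24 h and 11 in 1 VP64_A library at 12 h, and TSLP never exceeds 4.

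The receptors for these cytokines were mostly too low to test. Of 15 receptor genes, 3 were tested in the H47 arm (CSF1R, IL7R and IL15RA) and 4 in the VP64 arm (the same and CSF2RB), and CSF3R, TNFRSF13B and TNFRSF13C were at 0 in all 48 libraries. At 6 h against 0 h, 2 of 3 rose in H47_Ctrl and in H47_KO (IL7R and IL15RA), 1 of 4 in VP64_Ctrl (IL7R) and 2 of 4 in VP64_A (IL7R and CSF1R), and none fell. Of all genes, 10.3%, 13.2%, 16.2% and 11.4% were called higher at 6 h in H47_Ctrl, H47_KO, VP64_Ctrl and VP64_A. None of the 3 receptors was called between H47_KO and H47_Ctrl at any time, where 0.0821% to 0.319% of all genes were. IL7R, the receptor chain shared by IL7 and TSLP, was lower in VP64_A than in VP64_Ctrl at 0 h (18.7 ± 4.09 against 60.6 ± 7.73 CPM, log2 fold change -1.71 ± 0.17, adjusted p = 7.89e-09). It was also lower at 6 h (-1.18 ± 0.16, adjusted p = 8.92e-06) and 24 h (-0.86 ± 0.16, adjusted p = 6.56e-04), and not called at 12 h (-0.50 ± 0.16, adjusted p = 0.076). CSF1R, the receptor of CSF1, was called higher in VP64_A at 24 h (log2 fold change 2.97), and is named here after its value was seen. At 0, 6 and 12 h CSF1R was not called (log2 fold changes -0.017, 0.905 and 1.465), and it had at most 49 counts in a library. It is also the only 1 of the 5 myeloid markers that was tested, and the part of other cells in this was not tested. Together these 5 markers reached at most 2.37 CPM in a VP64_Ctrl library and 6.29 CPM in a VP64_A library. CSF1R may therefore have passed the filter in the VP64 arm through the VP64_A libraries. Its calls there may then not be independent of the difference. CSF2RB, the signalling chain of the GM-CSF receptor, averaged 0.39 ± 0.189 CPM in VP64_A at 0 h, where the VP64_Ctrl libraries were at 0, and 2.35 ± 0.678 against 0.122 ± 0.211 CPM at 12 h (adjusted p 0.0486 and 0.0194). At 6 and 24 h it was not called (adjusted p 0.0677 and 0.0655), and its levels are those of a few reads per library. CSF2RB passed the filter in the VP64 arm through the VP64_A libraries, where it was higher, so these p-values are not independent of that difference.

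Among 16 other stromal cytokines of the same families, 4 were tested in each arm. At 24 h against 0 h, 1 of 4 rose and 1 fell in H47_Ctrl, 2 rose and 1 fell in H47_KO, and 1 of 4 rose in VP64_Ctrl and in VP64_A. Of all genes, 6.53%, 9.07%, 10.4% and 9% were called higher in H47_Ctrl, H47_KO, VP64_Ctrl and VP64_A, and the share called lower was not counted. None of the 4 cytokines was called between H47_KO and H47_Ctrl, where 0.0821% to 0.319% of all genes were at the 4 times. EBI3, a subunit of IL-27 and IL-35, rose from 0.135 ± 0.234 to 2.25 ± 0.102 CPM in H47_Ctrl, from 0.326 ± 0.288 to 3.75 ± 1.61 in H47_KO and from 0.127 ± 0.155 to 2.56 ± 0.625 in VP64_Ctrl (log2 fold changes 3.56 ± 0.81, 3.37 ± 0.65 and 4.45 ± 0.91). In VP64_A it went from 0.458 ± 0.441 to 2.18 ± 0.59 CPM (adjusted p = 0.0532). At 0 h EBI3 averaged at most 0.458 CPM in a group, so it passed the filter through stimulated libraries. Its direction against 0 h was thereby set, and the counts of calls above include it. IL23A, which encodes the p19 subunit of IL-23, was higher in VP64_A than in VP64_Ctrl at 6 h (4.72 ± 1.02 against 0.275 ± 0.287 CPM, log2 fold change 3.58 ± 0.68, adjusted p = 8.63e-04) and at 12 h (3.38 ± 0.299 against 0.441 ± 0.388 CPM, log2 fold change 2.75 ± 0.64, adjusted p = 0.00789). IL23A had at most 30 counts in a library. It passed the filter in the VP64 arm alone, through the VP64_A libraries where it was high, so these p-values are not independent of that difference. At 0 h IL23A averaged 0.0705 CPM in VP64_A, so its rise there, counted above, was not independent of the filter either.

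Among 10691 genes tested in both arms, those whose course over the 16 condition means of log2(CPM + 1) was most like that of CSF2 were IL1B (Pearson r = 0.981), SLC7A1 (0.98) and FMNL3 (0.977). For CSF3 they were TNIP1 (0.983), AMPD3 (0.98) and ABL1 (0.977), and for CSF1 ABTB2 (0.951), ARID5A (0.949) and TRAF1 (0.949). For IL32 they were LRIG1 (0.962), MT1X (0.949) and SLC11A2 (0.942), for IL15 ANKLE2 (0.971), MSANTD3 (0.958) and NFKB1 (0.953), and for IL7 METRNL (0.926), CDC73 (0.889) and DRAM1 (0.845). CSF2 and CSF3 correlated with each other at 0.942 and each placed within the nearest 45 genes of the other, and IL32 correlated with CSF3 at 0.825, with CSF2 at 0.714 and with CSF1 at 0.523. The 16 points share the stimulation, the arms and the library depths, and the values are descriptions with no test.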

How the data were processed

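RNA was sequenced from 48 libraries prepared with Nextera XT. Per the labels and the study's methods, the authors trimmed reads with Trim Galore and obtained gene values with STAR and Salmon on GRCh38, and used DESeq2 themselves. The versions are not given in the sources used here. The authors deposited a table of estimated counts, of which 6.384% were not whole, and a table of TPM, each with 29744 genes. Values were rounded before testing. For each arm, the 24 libraries were fitted by their 8 conditions with edgeR 4.0.16 in R 4.3.3. The steps were TMM scaling, filterByExpr (minimum count 10, minimum total 15; 10962 and 10980 genes kept in the Cas9 and dCas9-VP64 arms) and the quasi-likelihood test, two-sided, with Benjamini-Hochberg adjustment over all genes tested. CPM values are scaled by TMM within an arm. A response difference is the interaction of group and time. Counts at 0 were replaced by a floor of 3 counts over the group, and 95% intervals and floors cover counting error only. Gene positions are those of GENCODE v44 (GRCh38). All 9 members are named. Genes of the receptor and related cytokine lists were named with values where they were called between groups at 2 or more times or at 24 h in 3 or more of the 4 groups, along with the 3 genes most like each member. The members and lists were chosen with earlier results of these data known. Alternatives were DESeq2 1.42.0, its size factors in edgeR, no filter, only the libraries compared, all 48 libraries in 1 fit, limma 3.58.1 on log2(TPM + 1) or log2(TPM + 0.1), blocking on replicate number, and each library left out in turn. The scripts were tested on simulated data. No 2 libraries of a condition held identical counts. One list of marker genes is not reported here.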

Additional observations from a re-analysis of the deposited data

Results flagged for a closer look

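The response of IL32 to TGFβ and IL-1β differed between VP64_A and VP64_Ctrl by the test of the difference itself, the interaction of group and time. It was larger in VP64_A by 1.5 on the log2 scale at 12 h (adjusted p = 0.0462, edgeR) and by 2.10 at 24 h (adjusted p = 0.00168). The 12 h call was lost on leaving out 17 of the 24 libraries in turn (values of 1.22 to 1.7 over the 24) and under 3 of 8 other settings. Both share the 0 h libraries, in which IL32 had 24, 18 and 4 counts in VP64_A and 50, 45 and 18 in VP64_Ctrl, and on leaving out each library in turn the 24 h value ranged from 1.82 to 2.3.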

How the results depend on the processing

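Of 84 member differences recomputed under 8 other settings and with each library left out in turn, 60 kept their direction and call throughout. These 84 are not all the tests of the members. For CSF2 and CSF3 they leave out comparisons at or against 0 h. For IL15 they hold 6 h against 0 h and 24 h against 6 h. For IL7 they hold 6 h against 0 h, and VP64_A against VP64_Ctrl at 0 h. Of the response differences they hold those of IL32 between VP64_A and VP64_Ctrl. DESeq2 called 1 pair between H47_KO and H47_Ctrl, where edgeR called 0. The 11 calls between VP64_A and VP64_Ctrl became 6 with limma on log2(TPM + 0.1) and 7 on log2(TPM + 1). The 2 response differences, both higher, became 1 with 0.1 TPM added, 4 with 1 TPM added (1 higher, 3 lower, all 3 CSF2), 3 with DESeq2 and with no filter (2 higher, 1 lower) and 1 with only the libraries compared, and ranged from 1 to 2 with 1 library left out. Differences between H47_KO and H47_Ctrl that were not called changed sign on log2 TPM, with 0.1 and then 1 TPM added: CSF2 at 24 h was 0.24 and 0.24, CSF3 at 6 h -0.35 and -0.34, IL32 at 6 h -0.25 and -0.24, and IL32 at 24 h 0.081 and 0.080. With 1 library left out, CSF3 at 6 h ranged from -0.070 to 0.142 and IL32 at 6 h from -0.082 to 0.18. The cause was not tested. On TPM the median of all genes between H47_KO and H47_Ctrl lay -0.37 and 0.34 from the edgeR median at 6 and 24 h. Same-numbered libraries of the 2 groups of an arm correlated at -0.05 to 0.20 in their deviations (24 pairs, 6 over 0.1), so the numbers were not taken as pairing. With the replicate block the counts of calls were the same, 11 between VP64_A and VP64_Ctrl and 2 response differences among them. At these depths IL7 had 1 to 45 counts per library, IL24 at most 15, TNFSF13B at most 7 and TSLP at most 4.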
